A study of Mus musculus with 12 samples.

Results

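The genes described here encode the machinery that copies DNA in S phase: 46 listed genes of origin licensing, the replicative helicase, the sliding clamp and its loader, the DNA polymerases and primase, single-stranded DNA binding, Okazaki fragment joining, deoxynucleotide supply, chromatin assembly and fork protection. The rule took the listed genes whose counts summed to 10 or more over 12 RNA sequencing libraries, and 44 of the 46 met it, out of 10808 gene rows that met it among 26485 in all. ORC1 with 3 counts and GINS2 with 8 counts in all libraries together fell under the limit and are not described further. The limit used total abundance and no difference between groups, but the list of genes was written with earlier results of these data known.

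The cells were CD4+ T cells, sorted on CD4 and CD45, of C57BL/6 mice that had been immunised with AOV in alum. Mice then received 4EGI-1, an inhibitor of the cap-binding translation initiation factor eIF4E, or vehicle, by mouth each day for 7 days, with 4EGI-1 at 25 mg/kg. The labels mark the arms as 4E and OA without spelling them out; here 4E is taken to be the 4EGI-1 arm and OA to be the vehicle one. The 4 groups of 3 libraries were 4E input, OA input, 4E heavy and OA heavy. Input is total RNA, polyA-selected per the labels, and heavy is RNA from the heavy polysome fractions of a sucrose gradient. All groups share the strain, the immunisation and the CD4+CD45+ gate. The labels do not say whether the 3 libraries of a group come from different animals, so each p-value reflects only library-to-library spread, possibly technical.

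Replication begins when the origin recognition complex, CDC6 and CDT1 load the ring-shaped MCM helicase onto DNA before S phase. CDC45 and the GINS complex then activate the helicase, primase and polymerase alpha start new strands, and polymerases epsilon and delta extend them with the clamp PCNA, which the RFC complex loads. In T cells these genes are known as a proliferation programme: resting cells carry little of their mRNA, and activation by antigen raises it, largely through E2F transcription factors.

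Gene counts ranged from 691449 to 1906657 per library, with the small noncoding RNAs taking 3.17% to 78.3% of them. The libraries stand apart by this share: it was 75.2% to 78.3% in 4E input and 33.6%, 74.9% and 71% in OA input, and 10.6% to 17% in 4E heavy and 3.17% to 12.2% in OA heavy. OA replicate 1 had the lowest share and the most counts in both fractions. The 44 genes together received 293 to 426 counts per library in 4E input, against 697 to 2700 in OA input, and 1048 to 1446 in 4E heavy, against 1765 to 4676 in OA heavy. Levels are given in counts-per-million (CPM) after TMM scaling, which adjusts for such differences in composition, and where no read was counted the level could still be up to 3 counts, or 0.796 to 6.46 CPM depending on the library; these floors cover counting error only. CPM are not divided by gene length, so levels are compared between libraries and not between genes. The annotated spans of 10 of the 44 genes, among them ORC2, MCM7 and FEN1, overlap a protein-coding gene on the other strand in GENCODE, and no source used here says whether the counting used strand.

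Of the genes that mark the sorted cells, CD4 itself was barely read, with 0 counts in all 3 libraries of 4E input, against 10.1, 0 and 6.68 CPM in OA input. It had 9.54, 0 and 3.58 CPM in 4E heavy, against 11.7, 4.03 and 0.65 CPM in OA heavy. The summed level of the 15 T cell markers tested of 16 listed was 2113 to 2489 CPM in 4E input, against 1793 to 2582 CPM in OA input, and 2490 to 2861 CPM in 4E heavy, against 2153 to 2667 CPM in OA heavy, so these ranges overlapped in both fractions. CD3D, a subunit gene of the T cell receptor complex, was at 0 in every library.

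As a set, the replication genes had lower levels in 4E than in OA in both fractions, but no single gene passed the test. Their summed level was 790, 631 and 901 CPM in 4E input, against 1096, 1304 and 1164 CPM in OA input. In heavy polysomes it was 920, 876 and 939 CPM in 4E, against 1241, 1316 and 1147 CPM in OA. The 3 libraries of 4E lay below the 3 of OA in each fraction, with means of 774 ± 136 CPM in 4E input and 1188 ± 106 CPM in OA input, and 912 ± 32.2 CPM in 4E heavy and 1234 ± 84.6 CPM in OA heavy (SD, n = 3 each). As a share of the reads outside small noncoding RNAs, the genes took 0.151% ± 0.027 in 4E input and 0.233% ± 0.0204 in OA input, and 0.176% ± 0.00586 in 4E heavy and 0.249% ± 0.0189 in OA heavy (SD, n = 3 each). In such bulk samples, fewer cycling cells and less of these mRNAs per cell cannot be told apart.

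**Figure D1:**
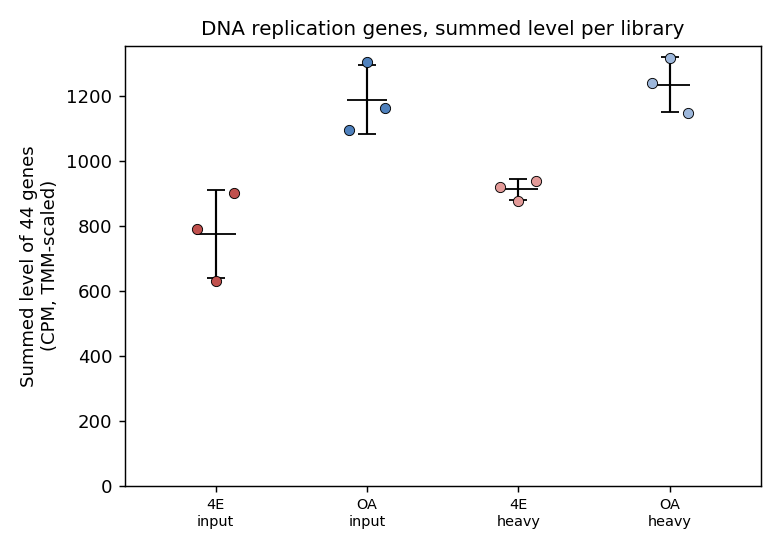
Summed level of the 44 DNA replication genes in each library (points, CPM after TMM scaling) with the mean and SD of each group of 3 (lines). The 4E libraries sit between 631 and 901 CPM in input and between 876 and 939 CPM in heavy polysomes, below every OA library of the same fraction.

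Differences between 4E and OA were tested gene by gene with edgeR's quasi-likelihood test on the counts, with Benjamini-Hochberg adjustment over all 10808 rows, and a gene is said to pass where its adjusted p is under 0.05. In input, 0 of the 44 genes passed, where 0.0555% of all rows did (6 rows), and the lowest adjusted p among the 44 was 0.224, for MCM5; by DESeq2 0 of the 44 passed too, and 8 were lower at an unadjusted p under 0.05. By direction alone, 36 of the 44 were lower in 4E, or 81.8%, against 58.2% of all rows tested. The median log2 change of the 44 was -0.62, against -0.17 over all rows; with the 2 genes that had no count in 4E input set at their bound, it was -0.585. At an unadjusted p under 0.05, 9 of the 44 were lower and 0 higher, where 6.25% of all rows were lower by that rule. The 3 values of 4E lay wholly below the 3 of OA for 9 of the 44 (ORC2, MCM5, MCM6, MCM10, PRIM1, POLD1, POLE, RRM1 and DNMT1), against 7.65% of all rows, and wholly above for 0, against 4.39%. For ORC2, MCM10 and PRIM1 this order is not resolved, as they had no count in some 4E input libraries, whose floors were 6.32 to 6.46 CPM. Few counts also underlie the 4E input values of POLE (2, 3 and 7) and MCM5 (17, 2 and 12). With no scaling for composition, 6 of the 44 passed in input and their median was -1.39, in a table whose all-row median was then -0.98; the gap between the medians was -0.417 so and -0.452 with TMM scaling.

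In heavy polysomes 0 of the 44 passed as well, where 0.037% of all rows did (4 rows), and the lowest adjusted p was 0.508, for MCM6; by DESeq2 0 passed and 9 were lower at an unadjusted p under 0.05. There 33 of the 44 were lower in 4E, or 75%, against 55.3% of all rows, with a median log2 change of -0.37, against -0.084 over all rows. At an unadjusted p under 0.05, 9 were lower and 0 higher, where 5.72% of all rows were lower; without 4E heavy replicate 2, or without OA heavy replicate 2, 5 were lower by that rule. The values did not overlap between 4E and OA for 9 genes that were lower in 4E (MCM3, MCM5, MCM6, MCM7, RFC3, POLE, FEN1, RRM1 and RRM2), against 9.40% of all rows, and for 0 that were higher, against 6.42%.

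Between the fractions, 28 of the 44 were lower in 4E in both, or 63.6%, against 39.3% of all rows, and 3 were higher in both (GINS3, RFC2 and CHAF1B, on 27, 146 and 82 counts in all libraries). MCM5, MCM6, POLE and RRM1 were the 4 genes whose 4E values lay wholly below the OA values in input and again in heavy polysomes, where 1.19% of all rows did so. The 2 comparisons use different libraries, but in OA the same-numbered input and heavy libraries deviated together from their group means. Over genes with at least 10 counts in 3 libraries, r was 0.67, 0.14 and 0.314 for replicates 1, 2 and 3. Heavy replicate 2 with input replicate 3 gave 0.164, and heavy replicate 3 with input replicate 2 gave 0.228. Pairs of replicate 1 with another number gave -0.524 to -0.296. The OA values of the fractions may thus not be independent, and a shared source was not tested. Without OA replicate 1 in both fractions, 32 of the 44 were lower in input with a median of -0.69 and 36 in heavy polysomes with a median of -0.44, against all-row medians of 0 and -0.028.

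**Figure D2:**
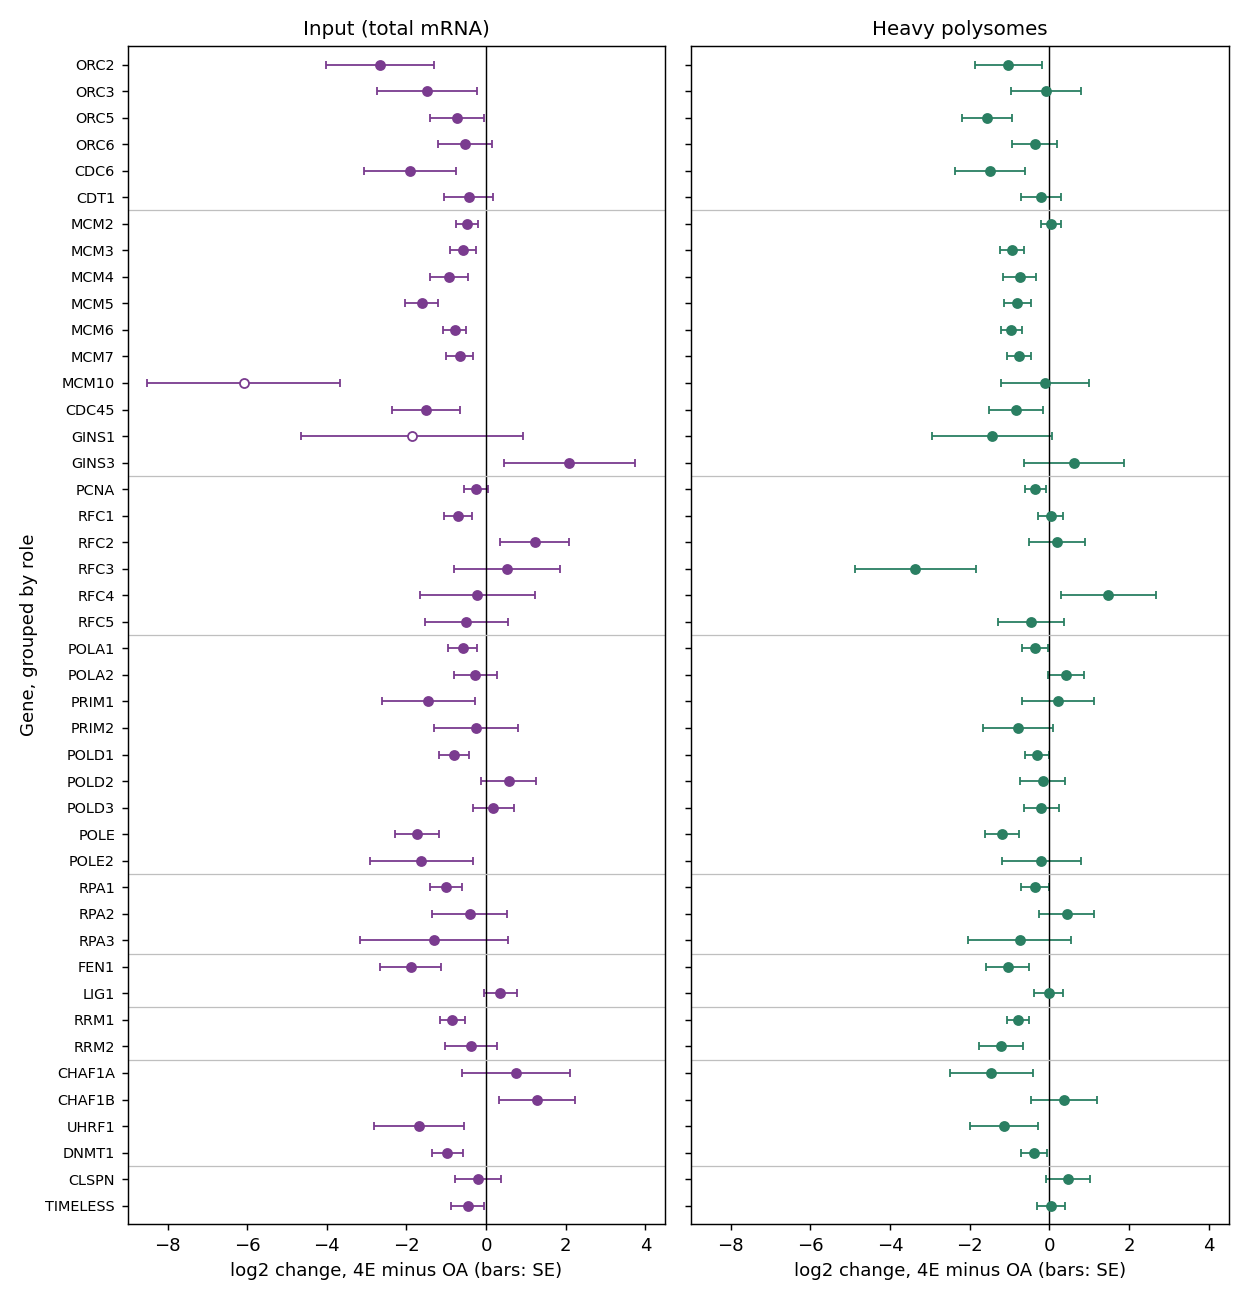
Log2 change of each gene, 4E minus OA, with its standard error, in input (left) and in heavy polysomes (right); grey lines separate the roles, from origin licensing at the top to fork protection at the bottom. Most points lie left of 0 (36 of 44 in input and 33 of 44 in heavy polysomes); open points mark MCM10 and GINS1, which had no count in 4E input, so that their fitted size has no fixed meaning.

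The ring-shaped helicase is built of MCM2, MCM3, MCM4, MCM5, MCM6 and MCM7, and these genes carried most of the counts of their role. All 6 were lower in 4E input than in OA input by the fitted change. MCM5 had 35.8, 4.31 and 25.4 CPM in 4E input, against 54.8, 69.3 and 81.8 CPM in OA input. The groups did not overlap, and replicate 2 of 4E, with 2 counts, was the lowest library. The log2 change of MCM5 was -1.62 (SE 0.405, unadjusted p = 3.72e-04, adjusted p = 0.224 by edgeR's quasi-likelihood test). Without OA replicate 1 in both fractions it was -1.77 with an adjusted p of 0.00184. In that fit 52 of all rows passed in input, against 6 in the main fit. The call thus rests on the setting, and more rows than MCM5 changed with it. Of the single libraries dropped, OA input replicate 1 let MCM5 pass (adjusted p = 0.0317), with 26 of all rows passing. OA heavy replicate 1 did so too (adjusted p = 0.0135), with 92 of all rows passing. Dropping 4E input replicate 2 gave MCM5 an adjusted p of 0.662, and 0 of all rows passed.

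In heavy polysomes MCM5 had 35.6, 39.3 and 34 CPM in 4E, against 69.3, 66.7 and 53.9 CPM in OA. The groups again did not overlap, and the log2 change was -0.80 (SE 0.339, adjusted p = 0.531 by edgeR's quasi-likelihood test). MCM6 had 46.4, 47.4 and 61.3 CPM in 4E input, against 110, 67.7 and 86.8 CPM in OA input. It had 52.8, 60.1 and 49.3 CPM in 4E heavy, against 122, 112 and 80.6 CPM in OA heavy. Every 4E library was thus below every OA library, with log2 changes of -0.79 (SE 0.291, adjusted p = 0.396) in input and -0.96 (SE 0.264, adjusted p = 0.508) in heavy polysomes by the same test.

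MCM3 had 35.8, 62.4 and 44.4 CPM in 4E input, against 52.8, 99.2 and 65.1 CPM in OA input, and these ranges overlapped. In heavy polysomes it had 40.7, 38.7 and 40.3 CPM in 4E, against 73.8, 97.8 and 58.5 CPM in OA. The 4E heavy values lay close together and below all OA values (log2 change -0.94, SE 0.295, adjusted p = 0.53 by edgeR's quasi-likelihood test). MCM7 showed the same order in heavy polysomes, with 53.4, 31.9 and 48.4 CPM in 4E, against 65.3, 88.6 and 73.4 CPM in OA (log2 change -0.76, SE 0.303, adjusted p = 0.53). In input its groups overlapped, with 35.8, 25.8 and 69.8 CPM in 4E, against 60.5, 77.2 and 71.8 CPM in OA.

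MCM2 was the 1 subunit of the 6 with a fitted change above 0 in heavy polysomes. It had 67.4, 53.8 and 71.9 CPM in 4E input, against 69, 109 and 95.2 CPM in OA input, but 90.4, 78.5 and 103 CPM in 4E heavy, against 77.2, 88 and 101 CPM in OA heavy. Its log2 change was -0.48 (SE 0.278) in input and 0.033 (SE 0.251) in heavy polysomes, and the test of the difference between these changes gave 0.51 (SE 0.375, unadjusted p = 0.184). MCM4 had 19, 21.5 and 21.1 CPM in 4E input, against 53.6, 42.5 and 16.7 CPM in OA input, where replicate 3 of OA lay below all 4E libraries. Its heavy polysome values were 32.4, 9.20 and 22.4 CPM in 4E, against 48.3, 32.2 and 25.3 CPM in OA, and the groups overlapped.

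**Figure D3:**
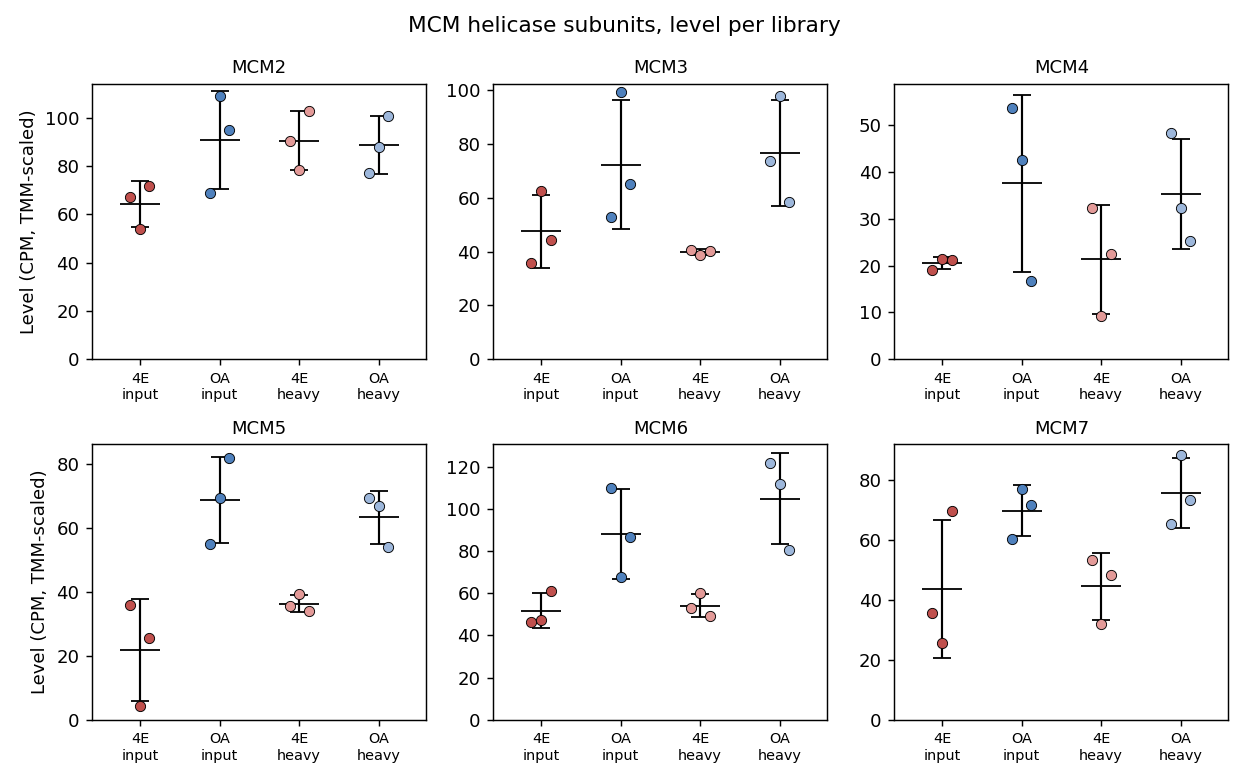
Level of the 6 MCM helicase subunits in each library (points, CPM after TMM scaling) with the mean and SD of each group of 3 (lines), from left to right 4E input, OA input, 4E heavy and OA heavy. MCM5 and MCM6 separate 4E from OA in both fractions, MCM3 and MCM7 in heavy polysomes, and MCM2 and MCM4 overlap in both.

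The remaining helicase factors were near the floor. MCM10, which helps start unwinding, had 0 counts in all 3 libraries of 4E input, against 2.03, 12.6 and 5.01 CPM in OA input. With 4E input set at 3 counts over the group, its log2 change was at most -1.03, and its adjusted p was 0.443 by edgeR's quasi-likelihood test. It had 6.36, 0 and 0.896 CPM in 4E heavy, against 3.98, 1.15 and 2.60 CPM in OA heavy, where the groups overlapped. CDC45, which joins the helicase when it is activated, had log2 changes of -1.51 (SE 0.855) in input and -0.84 (SE 0.686) in heavy polysomes. GINS1, of the GINS complex, had 16 counts in all libraries together. They gave 1.79 CPM in replicate 3 of 4E heavy with 0 in its other libraries, against 2.65, 1.73 and 0 CPM in OA heavy, and 0 in 4E input, against 0.406, 0 and 0 CPM in OA input. GINS3 had 27 counts in all.

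E2F factors bind a short GC-rich motif, which was looked for in the reference promoters of these genes. RefSeq promoter windows on GRCm38.p6, 300 bases long from 250 before to 50 after a start, were found for 39 of the 44 genes (48 windows). The letters searched, on both strands, were TTTCCCGC, TTTGGCGC, TTTGCCGC and TTTCGCGC, and at least 1 was present in 35.4% of the 48 windows, against 2.26% of all 32851 windows. Matches to them overlapped each other in 2 of the 48 windows. The CCAAT box, searched alike, was present in 60.4% of the 48 windows, against 37.4% of all, and overlapped such a match in 1 window. The windows of MCM5, MCM6 and MCM3 are shown because these subunits had the smallest p-values of the helicase in input or heavy polysomes and each holds a match, and that of RRM1 because it separated 4E from OA as MCM6 did and holds none. Capitals mark the matches, each sequence runs 5′ to 3′ on the gene's strand, and the last 50 bases lie after the start. The MCM5 window is chr8:75109259-75109558 on the plus strand, that of MCM6 chr1:128359656-128359955 on the minus strand, that of MCM3 chr1:20820263-20820562 on the minus strand, and that of RRM1 chr7:102441445-102441744 on the plus strand.
MCM5: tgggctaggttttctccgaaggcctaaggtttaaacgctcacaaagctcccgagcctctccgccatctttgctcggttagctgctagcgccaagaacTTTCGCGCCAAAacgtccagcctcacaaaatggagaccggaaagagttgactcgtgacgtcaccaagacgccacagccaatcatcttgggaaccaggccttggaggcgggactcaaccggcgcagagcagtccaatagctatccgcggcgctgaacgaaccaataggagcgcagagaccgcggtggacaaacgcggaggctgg
MCM6: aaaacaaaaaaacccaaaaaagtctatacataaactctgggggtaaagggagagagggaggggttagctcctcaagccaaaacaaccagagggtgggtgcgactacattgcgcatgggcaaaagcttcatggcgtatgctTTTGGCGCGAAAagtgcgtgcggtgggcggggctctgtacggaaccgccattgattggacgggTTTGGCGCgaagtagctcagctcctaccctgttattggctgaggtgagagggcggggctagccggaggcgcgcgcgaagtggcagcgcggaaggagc
MCM3: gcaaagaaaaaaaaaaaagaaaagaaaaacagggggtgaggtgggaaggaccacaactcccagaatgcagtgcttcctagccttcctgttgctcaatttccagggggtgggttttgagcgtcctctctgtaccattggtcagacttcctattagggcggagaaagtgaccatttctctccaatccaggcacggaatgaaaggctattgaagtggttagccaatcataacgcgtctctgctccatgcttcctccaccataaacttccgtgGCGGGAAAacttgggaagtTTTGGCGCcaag
RRM1: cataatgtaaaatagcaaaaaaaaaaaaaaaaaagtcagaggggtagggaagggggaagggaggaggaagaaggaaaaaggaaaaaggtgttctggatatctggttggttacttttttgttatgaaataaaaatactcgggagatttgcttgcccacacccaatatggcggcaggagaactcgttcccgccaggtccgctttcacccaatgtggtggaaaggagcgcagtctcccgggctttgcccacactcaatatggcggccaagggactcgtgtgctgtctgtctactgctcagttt
The MCM5 and MCM6 windows each hold a stretch in which TTTCGCGC and TTTGGCGC overlap on opposite strands. A match is a description of letters and not a site of binding, and its absence from the RRM1 window says only that these letters do not stand there.

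In origin licensing, all 6 genes measured had a log2 change below 0 in both fractions, with medians of -1.11 in input and -0.70 in heavy polysomes. ORC2, a subunit of the origin recognition complex, had 0, 0 and 2.11 CPM in 4E input, against 4.06, 6.30 and 5.01 CPM in OA input. These values did not overlap, but they rest on 81 counts in all 12 libraries together (log2 change -2.66, SE 1.36, adjusted p = 0.563 by edgeR's quasi-likelihood test). In heavy polysomes ORC2 had 2.55, 4.30 and 1.79 CPM in 4E, against 9.82, 4.03 and 3.90 CPM in OA, and the groups overlapped.

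ORC5, another subunit of that complex, had 8.43, 4.31 and 19 CPM in 4E input, against 29.2, 11 and 8.35 CPM in OA input. The heavy fraction held 10.2, 1.84 and 4.48 CPM in 4E, against 26, 9.78 and 13 CPM in OA. The groups overlapped in both fractions, and the heavy log2 change was -1.57 (SE 0.63, adjusted p = 0.53 by edgeR's quasi-likelihood test). CDT1, which brings the MCM ring to origins, had 21.1, 0 and 19 CPM in 4E input, against 16.6, 25.2 and 13.4 CPM in OA input. It had 14.6, 15.3 and 20.6 CPM in 4E heavy, against 23.1, 19.6 and 14.9 CPM in OA heavy. CDT1 values thus overlapped in both fractions, and its input change of -0.44 turned to 0.14 without 4E input replicate 2. CDC6, the ATPase that loads the ring, had log2 changes of -1.91 (SE 1.16) in input and -1.49 (SE 0.868) in heavy polysomes, ORC3 of -1.48 (SE 1.25) and -0.089 (SE 0.872), and ORC6 of -0.53 (SE 0.676) and -0.37 (SE 0.575).

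The catalytic subunit of polymerase epsilon, POLE, which makes the leading strand, had the smallest p of the polymerase and primase genes in both fractions. POLE had 4.22, 6.46 and 14.8 CPM in 4E input, against 17.5, 42.5 and 28.4 CPM in OA input. The 4E input values are 2, 3 and 7 counts, so counting error is large there. Heavy polysome RNA gave 14.6, 14.1 and 13.4 CPM in 4E, against 28.4, 43.7 and 24.7 CPM in OA. No 4E library reached any OA library of its fraction, and the log2 changes were -1.73 (SE 0.546, adjusted p = 0.3) in input and -1.19 (SE 0.426, adjusted p = 0.53) in heavy polysomes by edgeR's quasi-likelihood test. Its accessory subunit POLE2 had 50 counts in all libraries and log2 changes of -1.63 (SE 1.29) and -0.20 (SE 0.986).

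POLD1, the catalytic subunit of polymerase delta, which makes the lagging strand, had 19, 23.7 and 23.3 CPM in 4E input, against 29.6, 44.1 and 45.1 CPM in OA input. In heavy polysomes it had 29.9, 44.8 and 39.4 CPM in 4E, against 37.4, 52.9 and 52 CPM in OA. The groups separated in input and overlapped in heavy polysomes, with log2 changes of -0.81 (SE 0.378, adjusted p = 0.509) and -0.31 (SE 0.312, adjusted p = 0.807). Of the other subunits of that enzyme, POLD2 had 14.8, 6.46 and 12.7 CPM in 4E input, against 6.90, 3.15 and 13.4 CPM in OA input, and 19.7, 7.36 and 7.17 CPM in 4E heavy, against 15.9, 11.5 and 11 CPM in OA heavy. Its groups overlapped in both fractions, with an input log2 change of 0.57 (SE 0.691), and POLD3 had one of 0.18 (SE 0.514).

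POLA1, the catalytic subunit of polymerase alpha, had 37.9, 17.2 and 55 CPM in 4E input, against 59.3, 44.1 and 61.8 CPM in OA input. Its heavy polysome values were 30.5, 60.7 and 38.5 CPM in 4E, against 48.3, 62.1 and 58.5 CPM in OA. These ranges overlapped in both fractions, and the log2 changes were -0.59 (SE 0.369) and -0.37 (SE 0.325). PRIM1, the catalytic primase subunit, separated in input with 2.11, 4.31 and 0 CPM in 4E, against 5.28, 7.88 and 5.01 CPM in OA, and rests on 63 counts in all. POLA2 and PRIM2, the partners of POLA1 and PRIM1, had input log2 changes of -0.27 (SE 0.545) and -0.26 (SE 1.06), and heavy ones of 0.42 (SE 0.453) and -0.79 (SE 0.881).

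PCNA, the sliding clamp that tethers polymerases to DNA, had 63.2, 53.8 and 80.4 CPM in 4E input, against 101, 50.4 and 78.5 CPM in OA input. It had 99.3, 77.9 and 67.2 CPM in 4E heavy, against 118, 88 and 105 CPM in OA heavy. The groups overlapped in both fractions, the log2 changes were -0.25 (SE 0.296) and -0.35 (SE 0.267), and the input change was 0.054 without OA input replicate 1. RFC1, the large subunit of the loader, had 27.4, 21.5 and 25.4 CPM in 4E input, against 46.7, 47.3 and 25 CPM in OA input. It had 40.1, 43 and 45.7 CPM in 4E heavy, against 40.6, 43.7 and 41.6 CPM in OA heavy, where the groups overlapped (log2 change 0.031, SE 0.305).

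RFC3 was the loader subunit with the largest fitted heavy change, on very few counts. It had 0.636, 0 and 0 CPM in 4E heavy, against 6.63, 1.73 and 0.65 CPM in OA heavy (log2 change -3.37, SE 1.52, adjusted p = 0.55 by edgeR's quasi-likelihood test). In input it had 10.5, 0 and 2.11 CPM in 4E, against 6.50, 0 and 0 CPM in OA. The highest 4E heavy value and the lowest OA heavy value are 1 count each, and RFC3 had 52 counts in all libraries. RFC2 had 14.8, 15.1 and 6.34 CPM in 4E input, against 4.47, 0 and 11.7 CPM in OA input, and 1.91, 8.59 and 25.1 CPM in 4E heavy, against 7.43, 10.9 and 12.3 CPM in OA heavy, with overlap in both fractions. RFC2, RFC4 and RFC5 had input log2 changes of 1.22 (SE 0.871), -0.22 (SE 1.44) and -0.49 (SE 1.04), and heavy ones of 0.185 (SE 0.706), 1.48 (SE 1.19) and -0.47 (SE 0.832).

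RPA1, the large subunit of the complex that coats single-stranded DNA, had 44.3, 10.8 and 31.7 CPM in 4E input, against 73.5, 36.2 and 60.1 CPM in OA input. The heavy fraction held 51.5, 51.5 and 34.9 CPM in 4E, against 82.3, 50.6 and 42.9 CPM in OA. The ranges overlapped in both fractions, and the log2 changes were -0.995 (SE 0.403, adjusted p = 0.453) and -0.355 (SE 0.345, adjusted p = 0.798) by edgeR's quasi-likelihood test. RPA2 and RPA3, its smaller partners, had 119 and 27 counts in all libraries.

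Of the genes that finish the lagging strand, the flap nuclease FEN1 had 2.11, 6.46 and 2.11 CPM in 4E input, against 13, 22.1 and 5.01 CPM in OA input. Heavy polysome RNA gave 9.54, 6.75 and 10.8 CPM in 4E, against 25.7, 15.5 and 13.6 CPM in OA. FEN1 separated the arms in heavy polysomes (log2 change -1.05, SE 0.544, adjusted p = 0.596) and overlapped narrowly in input (log2 change -1.89, SE 0.769, adjusted p = 0.457). DNA ligase LIG1, which seals the nicks, had 29.5, 19.4 and 57.1 CPM in 4E input, against 20.7, 29.9 and 35.1 CPM in OA input. It had 26.7, 39.3 and 37.6 CPM in 4E heavy, against 24.1, 36.2 and 45.5 CPM in OA heavy. LIG1 showed no separation in either fraction, with log2 changes of 0.36 (SE 0.417) and -0.017 (SE 0.364) whose sign turned under other settings.

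Ribonucleotide reductase makes deoxynucleotides from ribonucleotides, with RRM1 as its large subunit and RRM2 as its small one. RRM1 had 29.5, 34.4 and 44.4 CPM in 4E input, against 52.8, 75.6 and 70.1 CPM in OA input. In heavy polysomes it had 42, 38.7 and 48.4 CPM in 4E, against 73.5, 80.5 and 69.5 CPM in OA. RRM1 separated the arms in both fractions, with log2 changes of -0.85 (SE 0.312, adjusted p = 0.394) and -0.80 (SE 0.273, adjusted p = 0.53) by edgeR's quasi-likelihood test. RRM2 had 4.22, 4.31 and 23.3 CPM in 4E input, against 16.2, 11 and 13.4 CPM in OA input, and 5.09, 7.98 and 13.4 CPM in 4E heavy, against 14.1, 31.1 and 15.6 CPM in OA heavy. It overlapped in input and separated in heavy polysomes, with log2 changes of -0.39 (SE 0.655) and -1.21 (SE 0.559, adjusted p = 0.55). The input change rests on single libraries, with -1.69 without 4E input replicate 3 and -0.00843 without 4E input replicate 1.

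Among the chromatin genes, DNMT1, which copies DNA methylation onto the new strand, had 37.9, 10.8 and 36 CPM in 4E input, against 60.1, 61.4 and 43.4 CPM in OA input. Its heavy polysome values were 47.7, 33.1 and 35.8 CPM in 4E, against 64.2, 44.3 and 42.2 CPM in OA. DNMT1 separated the arms in input (log2 change -0.97, SE 0.382, adjusted p = 0.431) and overlapped in heavy polysomes (log2 change -0.38, SE 0.33, adjusted p = 0.771). Its recruiter UHRF1 had log2 changes of -1.68 (SE 1.13) in input and -1.13 (SE 0.856) in heavy polysomes. CHAF1A and CHAF1B, subunits of the histone chaperone CAF-1, had input log2 changes of 0.75 (SE 1.36) and 1.28 (SE 0.945), on 62 and 82 counts in all libraries. CHAF1A had 0, 6.46 and 2.11 CPM in 4E input, against 2.44, 0 and 1.67 CPM in OA input, and 1.27, 0 and 6.27 CPM in 4E heavy, against 4.25, 9.78 and 5.85 CPM in OA heavy. These groups overlapped in both fractions.

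CLSPN, which carries the checkpoint signal at stalled forks, had 54.8, 71 and 52.9 CPM in 4E input, against 12.2, 112 and 91.8 CPM in OA input. The heavy fraction held 22.3, 35 and 60.9 CPM in 4E, against 5.84, 48.3 and 33.1 CPM in OA. OA replicate 1 was the lowest library in each fraction. Its summed level of the 44 genes was the lowest of the OA libraries in input (1096 CPM) but not in heavy polysomes (1241 CPM). The log2 changes of CLSPN were -0.19 (SE 0.576) in input and 0.47 (SE 0.55) in heavy polysomes. Without OA replicate 1 in both fractions the heavy change was -0.088. TIMELESS, a fork protection factor, had 21.1, 21.5 and 21.1 CPM in 4E input, against 20.3, 41 and 30.1 CPM in OA input, with log2 changes of -0.465 (SE 0.421) in input and 0.035 (SE 0.352) in heavy polysomes.

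**Figure D4:**
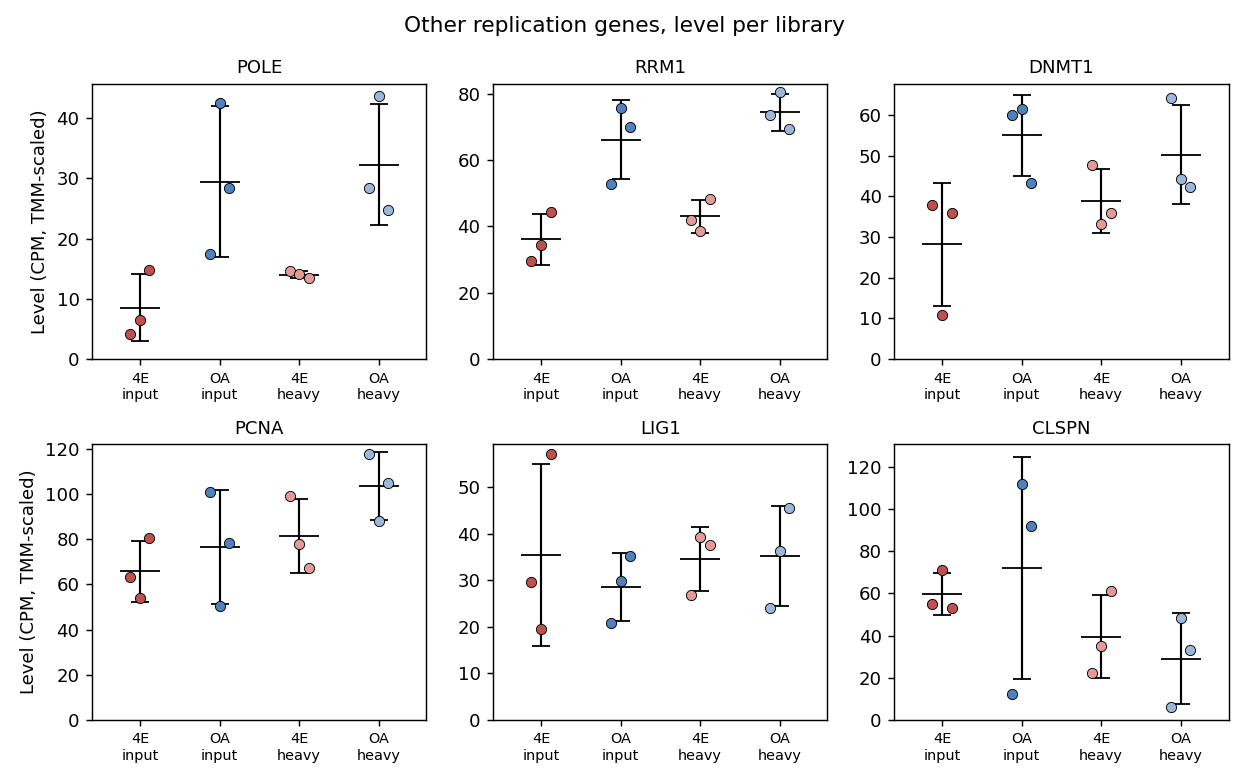
Level of POLE, RRM1, DNMT1, PCNA, LIG1 and CLSPN in each library (points, CPM after TMM scaling) with the mean and SD of each group of 3 (lines), from left to right 4E input, OA input, 4E heavy and OA heavy. POLE and RRM1 separate 4E from OA in both fractions and DNMT1 in input, PCNA and LIG1 overlap, and OA replicate 1 is the low CLSPN point in both fractions.

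The design also asks whether 4EGI-1 altered how much of each mRNA sat on heavy polysomes. The interaction, which is the 4E minus OA change in heavy polysomes less that in input, passed for 0 of the 44 genes, and for 0% of all rows by edgeR's quasi-likelihood test with Benjamini-Hochberg adjustment. MCM10 alone of the 44 had an unadjusted p under 0.05, where 2.68% of all rows did. By DESeq2, 0 of the 44 passed and 0 had an unadjusted p under 0.05. The median interaction of the 44 was 0.42, against 0.095 over all rows, and 29 of the 44 were above 0, where 6060 of all 10808 rows were. That median was 0.155 without 4E input replicate 2 (all-row median 0.0998), 0.15 without OA input replicate 2 (all-row median 0.109), 0.266 without OA heavy replicate 1, 0.268 without OA heavy replicate 3, and 0.194 over the 33 genes with at least 10 counts in 3 libraries. MCM10 has no count in 4E input, so that its fitted interaction has no fixed size. MCM5 (0.82, SE 0.53, unadjusted p = 0.131), RFC1 (0.73, SE 0.473, unadjusted p = 0.131), RFC3 (-3.89, SE 2.02, unadjusted p = 0.0629) and CHAF1A (-2.22, SE 1.73, unadjusted p = 0.209) were, with MCM2 above, the next by p.

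Within an arm, heavy polysome RNA was set against input. In 4E, 0 of the 44 genes passed, where 0.768% of all rows did (83 rows). There 31 of the 44 were higher in heavy polysomes, where 6244 of all 10808 rows were, with a median log2 difference of 0.33, against 0.115 over all rows. The median was 0.165 without 4E input replicate 2 (all-row median 0.112), 0.218 without 4E heavy replicate 3, and 0.18 over the 33 genes with at least 10 counts in 3 libraries. By DESeq2 0 of the 44 passed in either arm, and at an unadjusted p under 0.05 there was 1 lower in 4E and 0 in OA. At an unadjusted p under 0.05, RFC1 and POLD1 were higher and RFC3 was lower, or 3 of the 44, where 5.84% of all rows were in either direction. Heavy values lay wholly above input values for 6 genes (ORC3, MCM2, RFC1, POLD1, FEN1 and TIMELESS), against 8.91% of all rows, and wholly below for 0, against 3.95%. For ORC3 this order is not resolved. Replicate 3 of 4E input had no ORC3 count and a floor of 6.34 CPM, above every ORC3 heavy value (4.45, 3.07 and 3.58 CPM). FEN1 had 1, 3 and 1 counts in 4E input. RFC1, with heavy and input values given above, had a log2 difference of 0.79 (SE 0.355, adjusted p = 0.791), and POLD1 one of 0.79 (SE 0.369, adjusted p = 0.814) by edgeR's quasi-likelihood test. With no scaling for composition, 27 of the 44 passed as higher in heavy polysomes in 4E and 11 in OA, as did 6209 and 2443 of all rows.

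In OA, 0 of the 44 passed, where 0.574% of all rows did (62 rows). Of the 44, 29 were higher in heavy polysomes, where 5881 of all 10808 rows were, with a median of 0.098, against 0.048 over all rows. Without OA heavy replicate 2, 23 of the 44 were lower instead and the median was -0.0093; with replicate 1, 2 or 3 of OA input left out it was 0.0468, 0.201 or 0.0511. At an unadjusted p under 0.05 there was 1 of the 44, CLSPN, lower in heavy polysomes (log2 difference -1.27, SE 0.558, adjusted p = 0.999 by edgeR's quasi-likelihood test), where 2.17% of all rows had such a p in either direction. With the same-numbered libraries of each arm as a block, 1 of the 44 passed, CLSPN (log2 difference -1.26, adjusted p = 0.0012 by edgeR's quasi-likelihood test), and 97 of all rows did. The groups overlapped, with replicate 1 the lowest of each. Without that replicate in both fractions the difference was -1.32 with an adjusted p of 0.0109 by the same test, and 76 of all rows passed. Heavy values lay wholly above input values for CHAF1A alone, against 5.43% of all rows, and wholly below for PRIM1 and POLE2, against 2.75%. The CHAF1A order is not resolved, as OA input replicate 2 had no count and a floor of 4.73 CPM, above the lowest heavy value (4.25 CPM). CHAF1A (1.93, SE 1.11), PCNA (0.41, SE 0.272), GINS1 (2.32, SE 1.71), POLD2 (0.76, SE 0.607) and RFC2 (0.96, SE 0.79) were the next by p, each above 0.

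**Figure D5:**
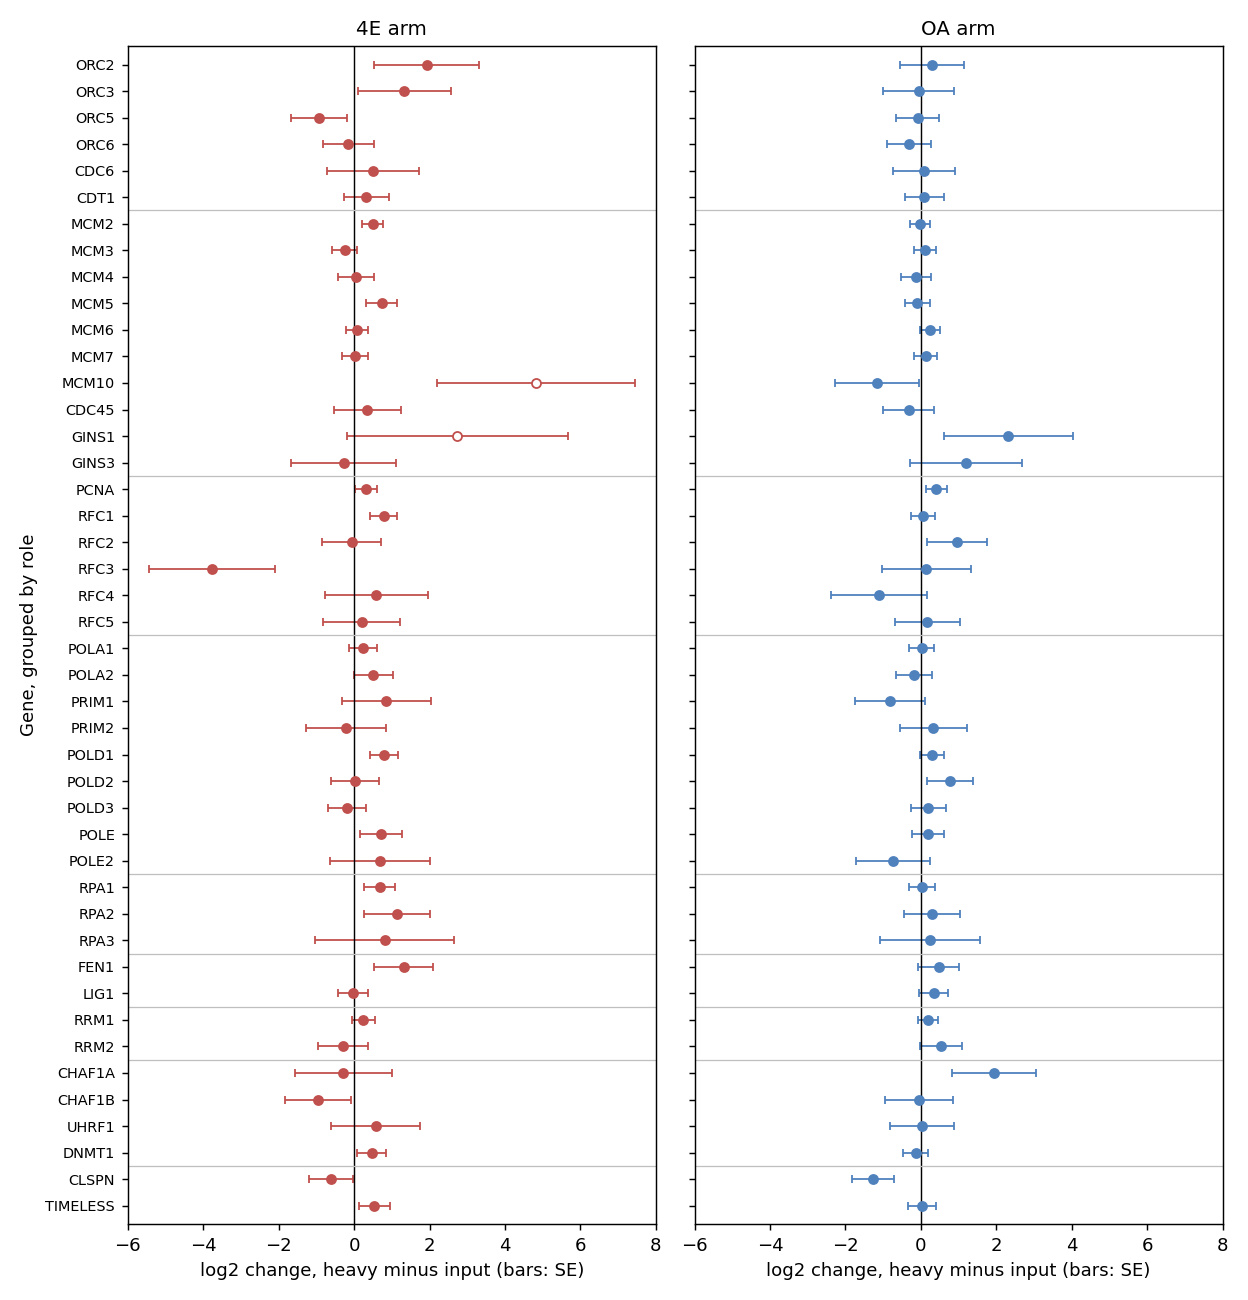
Log2 difference of each gene, heavy minus input, with its standard error, in the 4E arm (left) and in the OA arm (right); grey lines separate the roles. The medians are 0.33 in 4E and 0.098 in OA, the largest errors belong to genes with few counts, and open points mark MCM10 and GINS1, which had no count in 4E input.

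Of 65 other genes tested in 5 lists of the same pathways, 43 were lower in 4E in input, or 66.2%, against 58.2% of all rows, and 47 in heavy polysomes, or 72.3%, against 55.3%. Of these genes 0 passed in either fraction by edgeR's quasi-likelihood test. At an unadjusted p under 0.05, 8 were lower and 0 higher in input, or 12.3% lower against 6.25% of all rows, and 13 were lower and 1 higher in heavy polysomes, or 20% lower against 5.72%. Of 26 other fork and licensing factors, 15 were lower in 4E in input, or 57.7%, near the share of all rows, and 18 in heavy polysomes, and of 9 S phase kinases, cyclins and checkpoint genes 6 and 7. Of 14 E2F and RB family genes, 10 and 11 were lower, of 10 deoxynucleotide enzymes 8 and 7, and of 6 genes of histone supply and chromatin maintenance 4 in each fraction. The gene of the smallest p in each list was named for each fraction.

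CAD, which starts pyrimidine synthesis, had 78.3, 61.4 and 72.6 CPM in 4E heavy, against 115, 139 and 111 CPM in OA heavy, with no overlap (log2 change -0.78, SE 0.249, adjusted p = 0.53), and its input change was -0.46 (SE 0.274). ATR, the checkpoint kinase of stalled forks, had 21.1, 10.8 and 21.1 CPM in 4E input, against 61.7, 55.1 and 26.7 CPM in OA input (log2 change -1.47, SE 0.446, adjusted p = 0.3). The S phase cyclin CCNA2 had 0 counts in 4E input, against 4.87, 1.58 and 1.67 CPM in OA input, and 0, 0.614 and 1.79 CPM in 4E heavy, against 8.76, 8.05 and 9.10 CPM in OA heavy. CAD and CCNA2 separated the arms in heavy polysomes, and ATR in input. For CCNA2 in input, the floor of the 4E libraries (6.32 to 6.46 CPM) lay above every OA value, so the order there is not resolved. E2F1, an activating E2F factor, had 0, 1.23 and 0 CPM in 4E heavy, against 6.10, 11.5 and 2.60 CPM in OA heavy. The floor of 4E heavy replicate 3 (2.69 CPM) lay above the lowest of these OA values. E2F8 had 0 counts in 4E input, against 4.87, 0 and 10 CPM in OA input. Its groups overlapped (adjusted p = 0.457 by edgeR's quasi-likelihood test), and the 4E input floor lay above the OA values of 4.87 and 0 CPM. DTL, an adaptor of the ubiquitin ligase that degrades CDT1, had a log2 change of -1.74 (SE 0.767) and HAT1, a histone acetyltransferase, one of -1.32 (SE 0.509) in input. TIPIN, the partner of TIMELESS, had -2.93 (SE 1.07) and the chromatin remodeller HELLS -2.22 (SE 0.729) in heavy polysomes.

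Markers of other cells and of division were summed in the same libraries, and their counts are to be read against the 58.2% of all rows that were lower in 4E in input and the 55.3% in heavy polysomes. The 17 mitosis genes tested of 18 listed summed to 44.3, 58.1 and 88.8 CPM in 4E input, against 174, 246 and 129 CPM in OA input, and to 49.6, 69.3 and 77.95 CPM in 4E heavy, against 183, 170 and 128 CPM in OA heavy. Of these 17, 14 were lower in 4E in input and 17 in heavy polysomes, 0 passed by edgeR's quasi-likelihood test, 5 in input and 4 in heavy polysomes were lower at an unadjusted p under 0.05, where 6.25% and 5.72% of all rows were, and TOP2A had the smallest p (log2 changes -2.19, adjusted p = 0.137, and -2.17, adjusted p = 0.069). The 11 erythroid genes tested, with HBA1 and HBA2 at 0 in every library, summed to 61.1, 96.9 and 247 CPM in 4E input, against 135, 649 and 526 CPM in OA input, and to 57.3, 106 and 190 CPM in 4E heavy, against 105, 851 and 402 CPM in OA heavy. Of these 11, 10 were lower in 4E in input and 11 in heavy polysomes.

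The 7 stromal and endothelial genes tested of 10 listed, with DCN at 0 in every library, summed to 59, 43 and 46.5 CPM in 4E input, against 71.05, 219 and 564 CPM in OA input, and to 23.5, 30.1 and 43 CPM in 4E heavy, against 62.4, 223 and 516 CPM in OA heavy. Of these 7, 5 were lower in each fraction, or 71.4%, against 58.2% of all rows in input and 55.3% in heavy polysomes. The collagen gene COL3A1 passed in both fractions (log2 changes -5.29, adjusted p = 0.0383, and -4.66, adjusted p = 0.00982), and COL1A1 passed in heavy polysomes (log2 change -3.36, adjusted p = 0.0182) by edgeR's quasi-likelihood test. The 8 granulocyte and monocyte genes tested of 14 in the count table, with S100A8 and CAMP at 0 in every library, summed to 29.5, 36.6 and 61.3 CPM in 4E input, against 75.1, 69.3 and 41.8 CPM in OA input, and to 19.7, 27.6 and 41.2 CPM in 4E heavy, against 113, 65.6 and 77.3 CPM in OA heavy, with MPO passing in heavy polysomes (log2 change -4.15, adjusted p = 0.0182). Of these 8, 6 were lower in 4E in input and 8 in heavy polysomes. The B cell list summed to 61.1 to 171 CPM in 4E input, against 50.8 to 112 CPM in OA input, and to 55.4 to 163 CPM in 4E heavy, against 53.3 to 158 CPM in OA heavy. The CD8 and NK cell list stayed at 23.3 CPM or less in every library, and of the immature thymocyte list only DNTT was tested, at 4.23 CPM or less. The part of these cells and of the small noncoding RNA share in the differences of the replication genes was not tested.

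The authors' deposited table, which compares the arms on the same libraries and so is no independent evidence, lists all 44 genes. There, in the authors' deposited table, 35 of the 44 have no regulation class, 7 are classed as changed in transcription alone (ORC2, MCM5, MCM10, CDC45, POLE2, FEN1 and DNMT1), 1 in translation alone (ORC5) and 1 in both (POLE), or 20.5% with a class, against 12.4% of its 11226 rows. The lowest adjusted p of the 44 in the authors' deposited table is 0.435, for MCM6 in the translatome, where its log2 fold change is -0.935.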

How the data were processed

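RNA sequencing was done on 12 libraries in 4 groups of 3. The authors deposited whole-number counts per gene symbol, and per the labels the libraries were polyA-selected and stranded. Small noncoding RNAs nonetheless took 33.6% to 78.3% of the gene counts of the input libraries. Per the submitters' processing notes, Bowtie and mm9 were used in a role they do not give; no source used here names the counter or its annotation. Symbols are in the human style for mouse samples: 23 HLA rows held 35404 counts, 28 symbols had become dates, and 88.5% of the rows tested and all 44 genes described matched a mouse symbol. The name of the count table calls it normalised, but the values are whole, with unequal totals, and were handled as raw counts. Reads in no gene or ambiguous (16.4% to 31.4%) and 0 columns of other samples were left out. The authors' deposited table of their own log2 changes with p-values was only quoted.

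Rows with counts summing to 10 or more were tested with edgeR 4.0.16 (quasi-likelihood, TMM factors 0.431 to 1.98; R 4.3.3) in 1 fit with 4 group means, and adjusted p over all of them; DESeq2 1.42.0, other scalings, filters, blocks and left-out libraries were alternatives. Same-numbered libraries were taken as pairs where all 3 correlations of their deviations from the group means over genes exceeded 0.1. This held for heavy against input in OA (0.14 to 0.67) and not in 4E (0.0161 to 0.101) or between the arms (0.043 to 0.108 in input, 0.0154 to 0.278 in heavy polysomes); the labels give no shared source. Standard errors came from the F statistics. The members and lists were chosen with earlier results of these data known. Members named with values in each library were the 6 of smallest p per contrast, the 1 of most counts per role, and MCM5, MCM6 and RRM2; of other lists, those that passed or had the smallest p, with some not reported here. Other members' values were added after they were seen. Promoter windows are RefSeq's on GRCm38.p6, and the last 25 bases of 42 of 48 lay in a GENCODE transcript of the gene as printed.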

Additional observations from a re-analysis of the deposited data

How the results depend on the processing

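In every setting that compared the arms, more of the members tested were lower than higher in 4E in both fractions. The stricter filters left 33 of the 44 to test at 10 or more counts in 3 libraries and 17 at 50 or more. The left-out libraries kept the median between -0.817 and -0.604 in input and between -0.535 and -0.351 in heavy polysomes. With no composition scaling, 6 genes passed in input, 27 from input to heavy polysomes in 4E and 11 in OA; the medians were -1.39 in input, 0.898 for the interaction, 2.16 in 4E and 1.36 in OA, with all-row medians of -0.977, 0.717, 1.95 and 1.23, and LIG1 in input was -0.342 and CLSPN in OA 0.346. With no filter, MCM5 in input (adjusted p = 0.00643) and CLSPN in OA (0.0337) passed, 1 each; with only the 2 groups compared, MCM5 (0.0218) did, 1 gene; without OA replicate 1 in both fractions, 1 gene passed in input (MCM5) and 1 in OA (CLSPN), PCNA in input was 0.0434 and CLSPN in heavy polysomes -0.0883. Leaving out 1 library each, 0 to 1 of the 44 passed in input and 0 to 1 in OA, and some changes near 0 turned sign: LIG1 lay between -0.174 and 0.649 in input and between -0.243 and 0.205 in heavy polysomes, CLSPN between -0.754 and 0.355 in input and between -0.0722 and 1.09 in heavy polysomes, and in input CDT1 lay between -0.924 and 0.138 and PCNA between -0.465 and 0.0544. LIG1 in heavy polysomes was 0.00576 with at least 10 counts in 3 libraries.

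By the rule of 0.1, replicate numbers were taken to pair the input and heavy libraries of OA, but not those of 4E or the arms. In OA, heavy replicate 2 correlated a little better with input replicate 3 than with its own number (0.164 against 0.14). With a replicate block by number, 1 gene passed in input (MCM5, adjusted p = 0.00107), 2 in heavy polysomes (MCM6, 0.0124, and MCM3, 0.0352) and 1 in OA (CLSPN, 0.00473), CLSPN in input was 0.136 and LIG1 in heavy polysomes 0.011; with a block by arm and number, 1 passed in OA (CLSPN, 0.0012). Rows passing in input were 6, and 334 with no composition scaling, 113 with no filter, 208 with the block by number and 87 with only the 2 groups; in heavy polysomes they were 4, and 50 with no filter, 203 with the block and 8 with only the 2 groups. Leaving small noncoding RNAs out gave 0 in input and 6 in heavy polysomes, the stricter filters gave 0 in each, and DESeq2 gave 3 and 1. Without OA replicate 1 in both fractions 52 rows passed in input and 30 in heavy polysomes, and leaving out 1 library gave 0 to 92 and 0 to 28. From input to heavy polysomes 83 rows passed in 4E and 62 in OA, and 6284 and 2497 with no composition scaling, 11 and 8 without small noncoding RNAs, 43 and 32 at 50 or more counts in 3 libraries, 124 and 97 with the block by arm and number, and 35 in OA with only the 2 groups. In the other settings named above where CLSPN passed in OA, 87 rows did so with the block by number, 80 with no filter and 76 without OA replicate 1 in both fractions. The cause was not tested, other than where a setting changes the rows or libraries by its construction. Leaving out 1 library each, 6 to 13 of the 44 were lower at an unadjusted p under 0.05 in input and 5 to 10 in heavy polysomes, and the medians lay between 0.15 and 0.47 for the interaction, 0.165 and 0.487 in 4E and -0.0093 and 0.201 in OA. RRM2 in heavy polysomes lay between -1.61 and -0.763, and in input DNMT1 lay between -1.24 and -0.584, RPA1 between -1.44 and -0.606 and POLA1 between -1 and -0.252. Counts limit the rest: 33 of the 44 genes had at least 10 counts in at least 3 libraries.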

Other observations

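The promoter windows divide the 39 genes that have one into 17 with any of the E2F-type letters searched and 22 with none of them. Other forms of the motif were not searched. In input the 17 had a median log2 change of -0.657, with 13 lower in 4E, and the 22 a median of -0.513, with 19 lower. In heavy polysomes the medians were -0.37, with 15 lower, and -0.352, with 14 lower. These are descriptions of lists made from reference letters and carry no test.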
